A study of Mus musculus with 6 samples.

Results

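The levels of 10 genes for RNA-binding proteins that are used as marks of epithelial, stem cell or fetal programmes were compared in mouse tumour organoids. They were Rbpms, Rbpms2, Esrp1, Esrp2, Msi1, Msi2, Igf2bp1, Igf2bp2, Igf2bp3 and Lin28b. They were picked by gene symbol, and all 10 had a row among the 23224 genes of the deposited table. The organoids came from tumours grown in vivo and carry the label AKP, which the labels do not spell out. A group of 3 Control libraries was set against 3 libraries of genotype SOX17KO, in which the endoderm transcription factor gene Sox17 was targeted with CRISPR-Cas9, to address the role of SOX17 in colon cancer. Both groups therefore share the AKP background. The labels give no guide or control construct and leave unsaid whether cultures or clones differed between the libraries within a group, so a p-value here reflects only how these samples vary.

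RNA-binding proteins of this set act at different steps in the life of a transcript. ESRP1 and ESRP2 direct the splicing pattern of epithelial cells, while RBPMS and RBPMS2 are best known as splicing regulators of smooth muscle and heart. The Musashi proteins MSI1 and MSI2 control translation in intestinal stem and progenitor cells. IGF2BP1, IGF2BP2 and IGF2BP3 bind and stabilise messenger RNAs, in part at methylated adenosines, and LIN28B blocks the maturation of the let-7 microRNAs. IGF2BP1, IGF2BP3 and LIN28B are called oncofetal because they are abundant in the embryo, low in most adult tissues and regained in some tumours.

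Lin28b and the 3 Igf2bp genes share a sequence feature that the choice by symbol did not use. All 8 mature let-7 microRNAs of RefSeq on GRCm38.p6, from let-7a to let-7i, have the same seed at bases 2 to 8, and the longest 3′ UTRs of Igf2bp1, Igf2bp2, Igf2bp3 and Lin28b in GENCODE M21 hold its complement, CTACCTC. The microRNA is shown first, with the seed in capitals, and then 1 match from each gene, read 5′ to 3′ on the transcript's strand, with the complement of the seed in capitals. The last base of each site lies opposite base 1 of the microRNA.
let-7a-5p: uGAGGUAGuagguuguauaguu
Igf2bp1: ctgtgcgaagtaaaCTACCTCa
Igf2bp2: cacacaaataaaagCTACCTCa
Igf2bp3: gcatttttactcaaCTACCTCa
Lin28b: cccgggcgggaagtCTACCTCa
On GRCm38, the 4 sites lie on the minus strand at chr11:95961778-95961799 (Igf2bp1), chr16:22059473-22059494 (Igf2bp2), chr6:49086787-49086808 (Igf2bp3) and chr10:45381022-45381043 (Lin28b). Igf2bp1 and Lin28b had 4 matches each and Igf2bp2 and Igf2bp3 had 1 each, whereas the 3′ UTRs of the other 6 genes had 0. The match was present in 8.28% of the 20191 protein-coding genes with a 3′ UTR. Among genes with a 3′ UTR of similar length the share was 33.7% for Igf2bp1, 12.2% for Igf2bp2, 13.1% for Igf2bp3 and 24.2% for Lin28b. The search covered the sense strand of the transcripts, and a match is a description of letters, not a measured target site. Small RNAs such as let-7 were not measured in these libraries.

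Levels are given as CPM, the usual library-size-scaled count, here with TMM-adjusted library sizes. The libraries held 18290912 to 27503254 expected counts. Control libraries correlated with each other at 0.994 to 0.996 (log2 CPM over 9391 genes), and SOX17KO replicates 2 and 3 at 0.985. SOX17KO replicate 1 stood apart, at 0.943 and 0.944 to the other two SOX17KO libraries, and these were closer to each Control library (0.956 to 0.961). Sox17 was at 34.4, 34.5 and 34.2 CPM in Control, against 33.8, 41.9 and 45.1 CPM in SOX17KO replicates 1, 2 and 3 (edgeR quasi-likelihood test, adjusted p = 0.345). The transcript level therefore does not check the labels, and the second group is the libraries labelled SOX17KO. Of 16 epithelial identity genes, 15 passed the low-count filter, Epcam at 532.6 CPM in Control among them. The other, Cdx1, had 0 counts in Control and 24 in SOX17KO, 23 of them from the same library. Passing that filter takes few counts and does not by itself establish a cell type.

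Against the second word of the set's working name, the oncofetal members were close to absent. The 10 genes fell into 3 levels. Esrp1, Esrp2, Msi2 and Igf2bp2 were above 50 CPM in every library. Rbpms2, Igf2bp1, Igf2bp3 and Lin28b stayed below 1 CPM in every library, and Msi1 had 0 counts in all 6. Rbpms was the member that moved between levels, from below 1 CPM in each Control library to above 1 CPM in each library labelled SOX17KO. A low-count filter (filterByExpr of edgeR) left 6 of the 10 to the fit over 12137 genes, and Rbpms passed it only through the group in which it was high. Among these 6, 1 (Rbpms, higher in SOX17KO) was past an adjusted p of 0.05, against 6.87% of all tested genes (3.67% higher and 3.20% lower). Because the set was proposed with this contrast in view, the members' differences are descriptions, without a test, and nothing is read from that count.

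**Figure D1:**
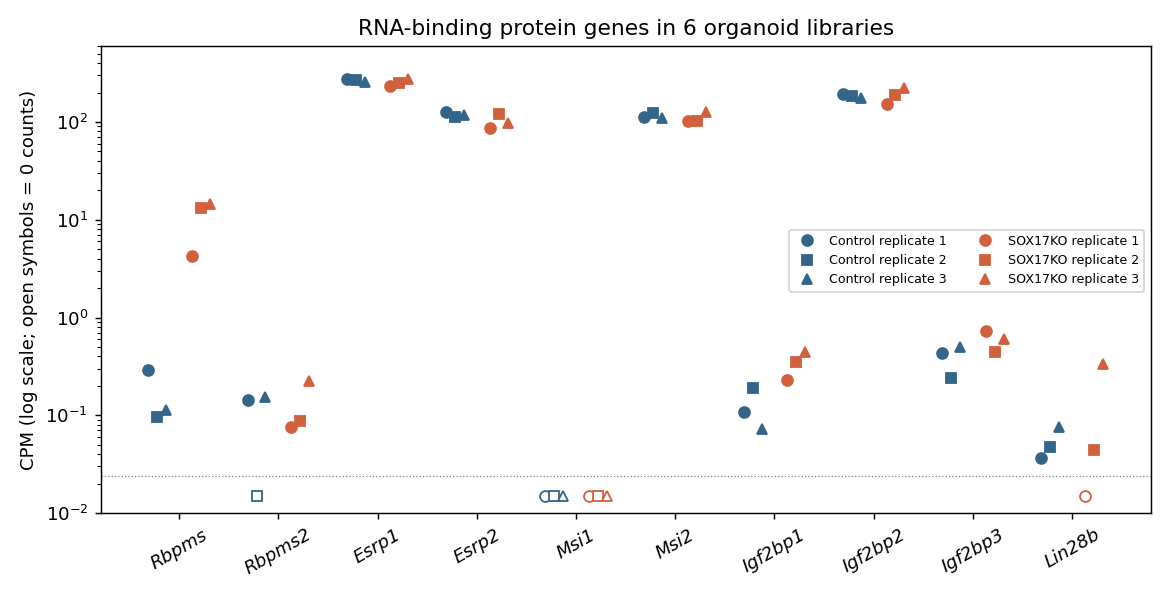
CPM on a log axis for the 10 genes in 3 Control libraries (blue) and 3 libraries labelled SOX17KO (orange), 1 symbol per replicate, with open symbols under the dotted line for 0 counts. Rbpms sits at 0.0957 to 0.289 CPM in Control, against 4.28 to 14.4 CPM in SOX17KO, while Esrp1, Esrp2, Msi2 and Igf2bp2 overlap between the groups.

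Rbpms, on chromosome 8, encodes an RNA-recognition-motif protein that drives the smooth muscle pattern of splicing. It had 8, 2 and 3 counts in Control replicates 1, 2 and 3, or 0.289, 0.0957 and 0.114 CPM. In SOX17KO replicates 1, 2 and 3 it had 112, 303 and 258.99 counts, or 4.28, 13.3 and 14.4 CPM. The groups did not overlap, as was so for 28.2% of all tested genes, and the lowest SOX17KO library was 14.8 times the highest Control library. The Control mean of 0.166 ± 0.107 CPM compared with 10.6 ± 5.54 CPM in SOX17KO (SD, n = 3), a log2 fold change of 5.90 ± 0.65 (SE). Exact Poisson intervals (95%, counting error only) were 0.125 to 0.570 CPM for the highest Control library and 3.52 to 5.14 CPM for the lowest SOX17KO library. Within SOX17KO the spread went beyond counting, since replicates 2 and 3 were 3.11 and 3.36 times replicate 1 and had intervals of 11.8 to 14.9 and 12.7 to 16.2 CPM. The log2 fold change was 6.57 without Control replicate 1, the Control library with most Rbpms counts, and 6.27 without SOX17KO replicate 1. In abundance the gene went from above 0.231% of the tested genes in Control to above 26.5% of them in SOX17KO, so it stayed in the lower part of the expressed genes. In bulk RNA, fewer cells with a transcript and less transcript per cell cannot be told apart.

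Its paralog Rbpms2 did not follow. Rbpms2, on chromosome 9, had 4, 0 and 4 counts in Control and 2, 2 and 4 in SOX17KO, or 8 in each group, too few for the main fit. Smooth muscle markers were measured beside Rbpms because that is the tissue in which it is best known. The 6 defining genes Acta2, Actg2, Myh11, Cnn1, Des and Myocd had 22 counts over Control and 27 over SOX17KO, with Des and Myocd at 0 in every library. These sums join genes that moved in opposite directions, Acta2 with 5 counts in Control and 21 in SOX17KO, and Myh11 with 12 and 4. All 12 smooth muscle markers summed to 149.0 to 151.3 CPM in Control and to 114.7, 197.7 and 161.9 CPM in SOX17KO replicates 1, 2 and 3. Most of that was Mylk, a myosin kinase gene also used outside muscle, at 128.2 ± 1.07 and 131.0 ± 46.1 CPM (edgeR adjusted p = 0.967). The other tested markers, Tagln and Smtn, had log2 fold changes of 0.40 ± 0.27 and 0.29 ± 0.15 (SE). None of the 3 tested markers was called by edgeR, DESeq2 or limma-voom, and 0 had an unadjusted edgeR p below 0.05. Over all tested genes, edgeR called 6.87%.

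Markers of other cell types were low. The 10 fibroblast markers summed to 0.526 to 0.579 CPM in Control and to 3.88, 1.45 and 1.66 CPM in SOX17KO replicates 1, 2 and 3, most of it Fn1, which encodes fibronectin, at 0.419 ± 0.0522 and 1.84 ± 1.21 CPM (edgeR adjusted p = 0.0537). From this list, 1 gene was called higher by DESeq2, without SOX17KO replicate 1 or 2 and with no low-count filter, and Col3a1, Dcn, Lum and Thy1 were at 0 in every library. The 5 endothelial markers summed to 0.144 to 0.304 CPM in Control, compared with 0.878, 0.0878 and 0.333 CPM in SOX17KO replicates 1, 2 and 3, with Emcn at 0 throughout. Most of the sum in SOX17KO replicate 1 was Tek, which had 22 of its 25 SOX17KO counts there. The 7 immune cell markers summed to 8.56 to 10.98 CPM in Control and to 5.18, 12.4 and 14.0 CPM in SOX17KO, most of it Cd68, a lysosomal gene, with Cd3e at 0 in every library. Among the libraries labelled SOX17KO, replicate 1 had the least Rbpms, the highest fibroblast and endothelial sums and the lowest smooth muscle and immune sums. The part of these markers in the difference of Rbpms was not tested.

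The genes around Rbpms did not show a difference of its size. Among the 5 tested genes on each side of it in the gene order of GRCm38.p6, the median log2 fold change was 0.14, with values from 0.02 to 1.13. Among the 10, 1 was called higher by edgeR, the phosphatase subunit gene Ppp2cb (log2 fold change 0.41 ± 0.09), and 0 were called lower. Tex15, a germ cell gene at 1.13 ± 0.70, was lower than the Control mean in SOX17KO replicate 2 and higher in replicates 1 and 3. GENCODE M21 places the antisense gene Gm26632 and the intronic gene Gm26978 over Rbpms, and the strand setting of the counting is not given in the sources used here, so reads from such partners could not be told apart.

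**Figure D2:**
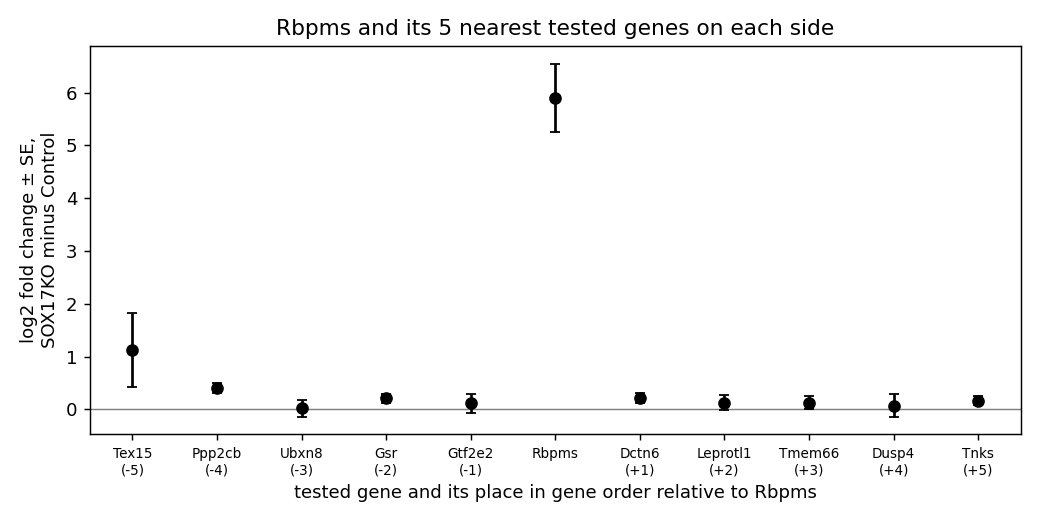
Log2 fold change (SOX17KO minus Control, with its SE) of Rbpms and of the 5 nearest tested genes on each side, in gene order. Rbpms is at 5.90, and the 10 neighbours lie between 0.02 and 1.13.

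Across the 6 libraries, the genes whose log2 CPM followed Rbpms most closely were Btbd7, Atg2b and Klc1, with Pearson correlations of 0.9965, 0.9962 and 0.9961 among 11399 genes. Atg2b, an autophagy gene, was at 78.4, 73.6 and 69.4 CPM in Control, against 109.4, 129.7 and 134.5 CPM in SOX17KO. All 3 shared with Rbpms a smaller difference in SOX17KO replicate 1 than in replicates 2 and 3. They lie on chromosome 12 between Angel1 and Crip1, a stretch in which 51 of 129 tested genes were called higher and 1 lower, whereas Rbpms lies on chromosome 8. In all 209 genes passed a correlation of 0.95, and the 6 points fall into 2 groups, so the likeness is a description.

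Esrp1 and Esrp2, the epithelial splicing regulators, stayed abundant in both groups. Esrp1 was at 278.0, 269.3 and 254.2 CPM in Control, against 233.8, 250.8 and 274.3 CPM in SOX17KO. Its groups overlapped, with SOX17KO replicate 3 next to the highest Control library and replicate 1 lowest of all. The log2 fold change was -0.08 ± 0.09 (SE). Esrp2 was at 126.3, 113.5 and 118.7 CPM in Control, against 86.3, 121.0 and 98.3 CPM in SOX17KO. SOX17KO replicates 1 and 3 were below each Control library and replicate 2 was among them, which gave means of 119.5 ± 6.41 and 101.9 ± 17.6 CPM (SD, n = 3) and a log2 fold change of -0.23 ± 0.13 (SE). The reference places Nfatc3, a protein-coding gene, over Esrp2 on the opposite strand.

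The balance of this pair was shifted in 2 libraries labelled SOX17KO. Counts per kilobase of the longest RefSeq-supported transcript (3864 bases for Esrp1 and 3536 for Esrp2) gave 2.01, 2.17 and 1.96 times as much Esrp1 as Esrp2 in Control. The ratio was 2.48, 1.90 and 2.55 in SOX17KO replicates 1, 2 and 3. As log2 ratios the means were 1.03 ± 0.08 and 1.20 ± 0.24 (SD, n = 3), a difference smaller than the spread within SOX17KO. Esrp2 was the tested member with the most negative difference, and the genes closest to it over the 6 libraries were Ralgds, Mknk2 and Nfe2l2 (Pearson correlations 0.9975, 0.9882 and 0.9877). Ralgds, which encodes an exchange factor downstream of Ras, was at 81.8, 74.5 and 76.6 CPM in Control, against 57.8, 76.9 and 64.5 CPM in SOX17KO, with the same order of libraries as Esrp2.

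Genes that accompany or oppose epithelial splicing were read beside the pair. Among 6 transcription factors of epithelial-mesenchymal transition, Zeb1, Zeb2, Snai2 and Twist2, of which ZEB1 and ZEB2 are known repressors of the ESRP genes, had at most 6.34 counts per group. Twist1 was the most abundant, at 90.5, 91.7 and 90.3 CPM in Control, against 37.9, 83.2 and 75.4 CPM in SOX17KO (edgeR adjusted p = 0.389), lowest in SOX17KO replicate 1 as Esrp2 was. Snai1, the other tested factor, differed in the opposite direction, with a log2 fold change of 1.07 ± 0.48 (SE, edgeR adjusted p = 0.27). Its level was low, and highest in SOX17KO replicate 1 (1.60 CPM). Replicates 2 and 3 held 0.571 and 0.665 CPM, and the Control libraries ranged from 0.362 to 0.571 CPM. No EMT factor was called by edgeR, DESeq2 or limma-voom, and 0 of the 2 tested had an unadjusted edgeR p below 0.05. With 6.87% of all tested genes called by edgeR, 0 calls in 2 say little. Of 15 tested epithelial identity genes, 2 rose and 2 fell, against 3.67% of all tested genes called higher and 3.20% called lower. Epcam, a cell adhesion gene chosen after its values were seen, rose from 532.6 ± 9.22 to 675.9 ± 1.61 CPM (edgeR adjusted p = 0.0343), and the tight junction gene Cldn7 rose from 223.9 ± 6.56 to 301.8 ± 17.9 CPM (edgeR adjusted p = 0.0223). The tight junction genes Cldn3 and Cldn4 fell, Cldn3 from 223.3 ± 15.2 to 96.2 ± 10.2 CPM and Cldn4 from 156.5 ± 10.7 to 73.1 ± 8.35 CPM (edgeR adjusted p = 0.00136 and 0.00224). Both lie on chromosome 5 between Wbscr16 and Rpl21, where 113 of 166 tested genes were called lower. Epcam and Cldn7 lost their call whichever Control library was left out (highest edgeR adjusted p 0.207 and 0.143). Epcam also lost its call without SOX17KO replicate 2 or 3 (edgeR adjusted p = 0.0657 and 0.0749) and with no low-count filter (edgeR adjusted p = 0.0707).

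Transcripts whose splicing the ESRP proteins are known to set were measured as whole genes, so isoforms were not seen. Of 12 such genes 10 were tested. Rac1, a small GTPase gene, fell by 0.54 ± 0.09 on the log2 scale, from 657.2 ± 6.24 to 452.8 ± 38.0 CPM (edgeR adjusted p = 0.0152), and the other 9 were not called, where 3.20% of all tested genes were called lower. Rac1 lies in the same stretch of chromosome 5 as Cldn3 and Cldn4, and it lost its call whichever Control library was left out (highest edgeR adjusted p 0.103). Fgfr2, the classic ESRP-spliced receptor gene, was nearly absent, with 0 counts in Control and 1 in SOX17KO. Of 5 transcripts that RBPMS is known to splice in smooth muscle, 4 were tested and edgeR called 0, against 6.87% of all tested genes. Of these 4, 2 had an unadjusted edgeR p below 0.05, while DESeq2 called 1 higher and limma-voom called 0. Leaving out SOX17KO replicate 1, edgeR called 2 genes of this list higher, where 1453 of all genes were higher. Myocd, also on that list, had 0 counts in every library.

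Msi2 was the one Musashi gene expressed. Msi1, the classic marker of intestinal progenitors, had 0 counts in each of the 6 libraries, which allows up to 0.0212 CPM over all 141676473 counts (3 counts). Msi2 was at 112.2, 124.4 and 110.7 CPM in Control, against 101.9, 101.6 and 125.6 CPM in SOX17KO. The groups overlapped, SOX17KO replicate 3 being the highest library of all, and the log2 fold change was -0.08 ± 0.11 (SE). Of 8 tested transcripts that Musashi proteins are known to bind, 0 were called by edgeR, against 6.87% of all tested genes, and 0 by limma-voom. Of these 8, 2 had an unadjusted edgeR p below 0.05 and 1 was called higher by DESeq2. With SOX17KO replicate 1 left out, edgeR called 3 genes of this list higher, where 1453 of all genes were higher. The most abundant of the 8 was Lrig1, a negative regulator of growth factor receptors and a stem cell marker. It was at 193.0, 176.1 and 160.8 CPM in Control, against 336.9, 226.5 and 247.0 CPM in SOX17KO (edgeR adjusted p = 0.0718). Its groups did not overlap, as was so for 28.2% of all tested genes.

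Igf2bp2 carried nearly the whole output of its family. It took between 99.4% and 99.8% of the counts of Igf2bp1, Igf2bp2 and Igf2bp3 in any library. Its level was 191.4, 186.0 and 178.1 CPM in Control and 151.8, 190.3 and 222.0 CPM in SOX17KO. The SOX17KO libraries lay below, within and above the Control range, so the means of 185.2 ± 6.69 and 188.0 ± 35.2 CPM (SD, n = 3) hid a spread that was wider in SOX17KO (18.7% of the mean against 3.61%). The log2 fold change was 0.02 ± 0.14 (SE), and leaving out single libraries moved it between -0.11 and 0.15. SOX17KO replicate 1 was the lowest library for Igf2bp2, Esrp1 and Esrp2.

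The fetal paralogs were near the limit of detection. Igf2bp3 had 12, 5 and 13 counts in Control and 19, 10 and 11 in SOX17KO, or 0.434, 0.239 and 0.495 CPM against 0.725, 0.439 and 0.610 CPM. The groups overlapped, and its log2 fold change was 0.58 ± 0.39 (SE). It lies on chromosome 6, where the 10 tested neighbours had a median log2 fold change of -0.12, with 0 called by edgeR in either direction. GENCODE M21 places the protein-coding gene Malsu1 over Igf2bp3 and the antisense gene Gm29202 over Igf2bp1, both on the opposite strand. With the strand setting of the counting not given, reads from such partners could not be told apart. Igf2bp1 had 3, 4 and 1.9 counts in Control and 6, 8 and 8 in SOX17KO. Each SOX17KO library was higher than each Control library (0.229 to 0.443 against 0.0723 to 0.191 CPM), and the ranges of 28.2% of all tested genes did not overlap. With 30.9 counts in all, Igf2bp1 was not tested in the main fit. DESeq2 and edgeR with no low-count filter kept it and did not call it. Lin28b had 1, 1 and 2 counts in Control and 0, 1 and 6 in SOX17KO, so 6 of its 11 counts came from 1 library. Its relative Lin28a had 2 and 4 counts per group.

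**Figure D3:**
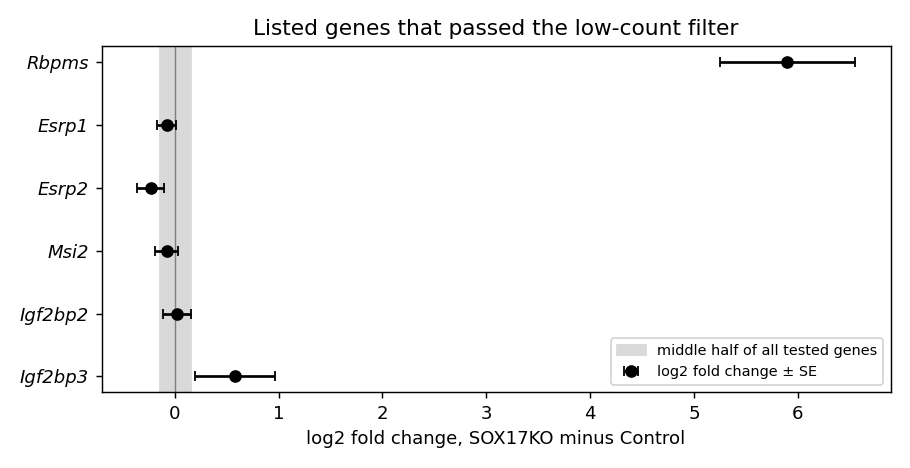
Log2 fold change (SOX17KO minus Control) with its SE for the 6 genes that passed the low-count filter, over a grey band for the quartile range of all 12137 tested genes (-0.14 to 0.15). Esrp1, Msi2 and Igf2bp2 have estimates within the band, Esrp2 (-0.23) lies below it with an SE that reaches it, Igf2bp3 (0.58) lies above it with an SE of 0.39, and Rbpms is at 5.90.

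Set against transcript length, the order of the 4 abundant members was the same in every library. In Control the levels were 69.1 ± 3.12 CPM per kilobase for Esrp1, 47.5 ± 1.72 for Igf2bp2, 33.8 ± 1.81 for Esrp2 and 17.98 ± 1.17 for Msi2 (SD, n = 3). In SOX17KO they were 65.5 ± 5.25, 48.2 ± 9.02, 28.8 ± 4.99 and 17.0 ± 2.15 CPM per kilobase. In both groups each step in that order was larger than the SDs of its neighbours. Rbpms went from 0.0654 ± 0.0420 to 4.18 ± 2.18 CPM per kilobase and so stayed below Msi2. The lengths were those of the longest coding transcript, and for Msi2, with forms from 695 to 6436 bases, the value depends on that choice.

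Genes of the let-7 axis around LIN28B and the IGF2BP proteins were tested as 2 lists. Of 21 tested let-7 target genes other than members, 2 rose and 0 fell, against 3.67% of all tested genes called higher and 3.20% called lower. Without SOX17KO replicate 1, edgeR called 3 genes of this list higher and 2 lower, where 1453 of all genes were higher and 1255 lower. Igf1r, the receptor for insulin-like growth factors, rose from 52.9 ± 3.98 to 72.2 ± 6.76 CPM and Irs2, an adaptor of that receptor, from 2.84 ± 0.599 to 6.41 ± 1.65 CPM (edgeR adjusted p = 0.0444 and 0.0428). Both were lost with limma-voom (adjusted p = 0.0523 and 0.0520), whichever Control library was left out (highest edgeR adjusted p 0.208 and 0.179) and without SOX17KO replicate 3 (edgeR adjusted p = 0.104 and 0.0951), and Igf1r also without SOX17KO replicate 2 (edgeR adjusted p = 0.106). Hmga2, the best known let-7 target and itself a fetal gene, was at 94.2 ± 2.12 and 98.9 ± 4.95 CPM (edgeR adjusted p = 0.698). Over the list, log2 fold changes had a median of 0.04, against 0.01 over all tested genes.

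Of 10 tested genes of the microRNA machinery, 1 rose and 1 fell, against 6.87% of all tested genes called in either direction. Dicer1, whose product cuts microRNA precursors, rose from 104.3 ± 1.54 to 138.6 ± 10.4 CPM (edgeR adjusted p = 0.0291). It lies in the same stretch of chromosome 12 as Btbd7, Atg2b and Klc1. Eif2c1, the gene of the Argonaute protein AGO1, fell from 130.1 ± 6.64 to 94.2 ± 5.88 CPM (edgeR adjusted p = 0.0195). Both lost their call whichever Control library was left out (highest edgeR adjusted p 0.153 and 0.109) and also without SOX17KO replicate 2 (edgeR adjusted p = 0.0639 and 0.0526).

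Other oncofetal genes were mostly silent. Of 12 listed, 4 were tested, and the other 8 did not exceed 26 counts in a group, for example H19 with 0 and 1, Igf2 with 5 and 4 and Dlk1 with 0 in every library. None was called by edgeR, DESeq2 or limma-voom, and 0 had an unadjusted edgeR p below 0.05. Hmga2 supplied most of the list's 96.3 to 106.0 CPM. Of 6 tested transcripts that IGF2BP proteins are known to bind, 0 were called by any of these 3 tools and 1 had an unadjusted edgeR p below 0.05. The most abundant was Actb, which encodes beta-actin, at 4083 ± 160.1 and 3326 ± 346.1 CPM (edgeR adjusted p = 0.161). The 15 genes that write, erase or read the RNA methylation which IGF2BP proteins recognise were all tested, and 0 were called by any of the 3 tools or had an unadjusted edgeR p below 0.05. Alkbh5, a demethylase gene and the most abundant, was at 312.4 ± 13.5 and 328.3 ± 65.2 CPM (edgeR adjusted p = 0.862). Over all tested genes edgeR called 6.87%, so 0 calls in lists of 4, 6 and 15 tested genes say little.

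Other RNA-binding protein genes were read as 2 lists. Of 22 tested splicing regulators, 0 were called by edgeR, DESeq2 or limma-voom, with 2 at an unadjusted edgeR p below 0.05. By edgeR, 6.87% of all tested genes were called. Their median log2 fold change, for the splicing regulators, was 0.02. Without SOX17KO replicate 1, edgeR called 1 gene of this list higher and 3 lower, where 1453 of all genes were higher and 1255 lower. Hnrnpf, which encodes a G-tract-binding splicing factor and was the most abundant, was at 1112 ± 70.8 and 954.1 ± 31.4 CPM (edgeR adjusted p = 0.202). Of 25 tested regulators of messenger RNA stability and translation, 1 rose and 1 fell, against the same 6.87%. Zfp36l1, which promotes the decay of AU-rich transcripts, rose by 0.68 ± 0.10 on the log2 scale, from 49.9 ± 4.43 to 79.9 ± 6.35 CPM (edgeR adjusted p = 0.0101). Csda, the older symbol of the Y-box gene Ybx3, fell by 0.49 ± 0.08 on the log2 scale, from 940.2 ± 22.2 to 670.9 ± 23.1 CPM (edgeR adjusted p = 0.0131). Csda lost its call whichever Control library was left out, and Zfp36l1 without Control replicate 2 or 3 (highest edgeR adjusted p 0.0878 and 0.0723). Over all 16 lists, 6 of 141 tested genes were called higher and 5 lower, or 7.80%, near the 6.87% of all tested genes, and without SOX17KO replicate 1 the numbers were 19 and 12.

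**Figure D4:**
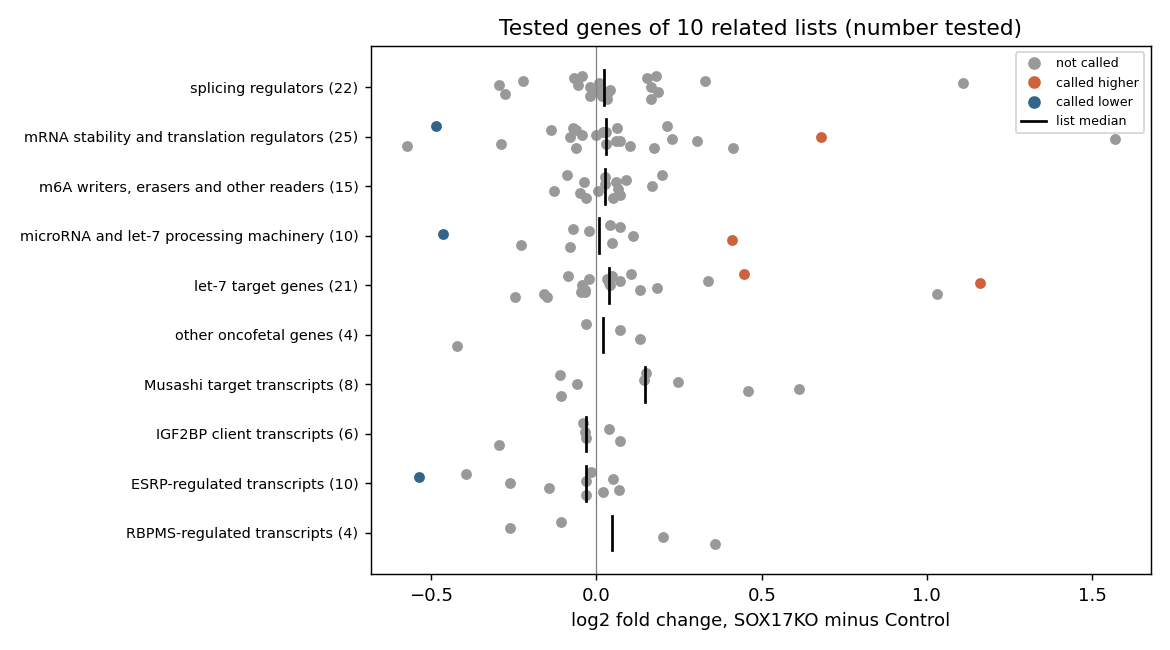
Log2 fold change (SOX17KO minus Control) of each tested gene in 10 lists related to the RNA-binding proteins, with called genes in orange (higher) and blue (lower), other genes in grey and the list median as a black bar. Medians lie between -0.03 and 0.15, and a list holds at most 2 called genes.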

How the data were processed

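For 6 poly(A)-selected directional libraries the authors deposited expected counts per gene. Bowtie, RSEM and the build mm9 are listed in the submitters' processing notes. The versions, the gene models and the strandedness of the counting were not given in the sources used here. Values were rounded to whole numbers (26.6% to 30.3% of all 23224 values per library, zeros included, differed from the nearest whole number, with no tolerance) and tested with edgeR 4.0.16 in R 4.3.3: quasi-likelihood F test, TMM factors, filterByExpr with at least 10 counts and a total of 15, genotype as the one term, and p-values adjusted after Benjamini-Hochberg across 12137 genes, called at 0.05. To get the SE, the log2 fold change was divided by the root of F. CPM used unrounded values. Counting intervals cover counting error only.

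The members, lists and rules were chosen with earlier results of these data known. Text names all members, up to 3 called genes per list by smallest p or else its most abundant tested gene, and, for the members with the largest positive and negative difference, the 3 best correlated genes of mean CPM at least 1 (log2 CPM, prior count 2). A gene that this rule names is not reported here. Other named genes were chosen after their values were seen. Gene order and chromosomes came from RefSeq on GRCm38.p6 (99.0% of tested genes matched), and transcript lengths and 3′ UTRs from GENCODE M21, both later builds than mm9, so the only coordinates given are those of the let-7 seed matches, found on GRCm38. The UTR with the greatest length among RefSeq-supported transcripts was searched for the let-7 seed match, and UTRs of similar length were those at 0.8 to 1.25 times it. Alternatives were RLE factors, library totals, 2 other low-count filters, DESeq2 1.42.0, limma-voom (limma 3.58.1), a replicate block and leaving out each library in turn. The procedure was tested on simulated data, where it recovered 16.4% of 1.5-fold, 68.7% of 2-fold and 95.4% of 4-fold changes. Of its 128 calls there, 9 were false. A gene that was not called may therefore still differ.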

Additional observations from a re-analysis of the deposited data

How the results depend on the processing

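Over 13 alternatives (12 for Igf2bp3, which a filter of 1 CPM removed), the log2 fold changes of the 6 tested members moved by less than the spread between replicates. That of Rbpms ranged from 5.63 to 6.57, that of Esrp1 from -0.14 to -0.03 and that of Esrp2 from -0.37 to -0.12. That of Msi2 ranged from -0.19 to -0.02, that of Igf2bp3 from 0.35 to 0.77 and that of Igf2bp2 from -0.11 to 0.15. Of these 6, Rbpms alone was called in the main fit, against 6.87% of all tested genes, and nothing is read from that count. DESeq2 and the fit with no low-count filter held 9 members, of which Rbpms alone was called. The difference in the Esrp1 to Esrp2 log2 ratio was 0.16, and 0.08 to 0.30 with single libraries left out. Of all genes 446 were higher and 388 lower. DESeq2 called 772 and 671, and leaving out single libraries gave 97 to 1453 higher and 94 to 1255 lower, with the largest numbers without SOX17KO replicate 1 and the smallest without a Control library. Of list genes 6 were higher and 5 lower, DESeq2 called 11 and 7, and leaving out single libraries gave 0 to 19 higher and 2 to 12 lower. The causes were not tested. With the replicate number as a block, 183 genes were higher and 143 lower, and 1 and 2 list genes. The numbers do not pair the libraries: deviations of same-numbered libraries from their group means correlated at -0.32, -0.12 and -0.37, and no library correlated best with its own number. Depth limits Rbpms2, Msi1, Igf2bp1, Igf2bp3 and Lin28b, with at most 19 counts in a library.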
